A study of Mus musculus with 6 samples.

Results

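The 38 genes described here carry glucose into the cell, break it down to pyruvate and lactate, and act on pyruvate in the mitochondrion. They were chosen by name, as the gene symbols listed for glucose transporters, hexokinases, the enzymes of glycolysis, lactate dehydrogenases, lactate transporters and the pyruvate dehydrogenase (PDH) complex with its kinases and a phosphatase. The rule uses no measured value of these libraries, but the list was drawn up with earlier results of the data known. All 38 were found among the 18182 genes of the files. RNA was sequenced from Lewis lung carcinoma (LLC) cells. This murine line of lung cancer had been labelled with red fluorescent protein (RFP) and injected under the skin of wild type C57BL/6 mice. In 3 libraries the tumours were formed by LLC-RFP cells alone (LLC alone). In the other 3 libraries LLC-RFP cells had been injected together with bone marrow-derived mesenchymal stem cells (LLC with BMSCs). RFP-positive cells of both groups were sorted from the primary tumours by flow cytometry when the tumours had reached a set size, and the comparison asks how the transcriptome of the cancer cells differs with BMSCs present. The source named in the labels of the second group is LLC cells and mesenchymal stem cells together, while the sort was for RFP. The allografts of luciferase-labelled LLC cells in the same study were made in female mice that were 6 weeks old, and no age or sex is tied to the sequenced tumours themselves. The labels do not say whether the 3 libraries of a group came from separate mice, so that p-values measure only the spread between these libraries.

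Glucose enters most cells through transporters of the SLC2A (GLUT) family and is trapped inside by hexokinase. Phosphofructokinase commits it to glycolysis, and the lower enzymes of the pathway yield ATP, NADH and pyruvate. Pyruvate either becomes lactate or is turned into acetyl-CoA in the mitochondrion by the PDH complex, which PDH kinases switch off. Tumour cells often turn much of their glucose into lactate even when oxygen is present, and many genes of the pathway are known targets of the hypoxia-inducible factor HIF-1 and of MYC.

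The estimated counts of a library summed to between 33476347 and 46189113 fragments, and 13353 genes passed edgeR's filter on low counts and were tested. Levels are given as FPKM (fragments scaled by transcript length and by the library total), which divides by length so that genes can be set side by side. LLC alone replicate 3 differed most from the other libraries by transcript length, with a median deviation of 0.31 on the log2 scale in the shortest genes and -0.37 in the longest. The libraries with BMSCs lay the other way, at -0.19 to -0.09 in the shortest genes and 0.10 to 0.18 in the longest. LLC alone replicates 1 and 2 were at 0.06 and 0.04 in the shortest genes and at -0.02 and -0.003 in the longest. The trend over length thus ran partly along the groups, and its cause was not tested. Of the 11 markers of lung epithelium and carcinoma in the files, 3 were tested, and all 3 were higher with BMSCs. Krt8 (a keratin) was at 90.3 to 102 FPKM in LLC alone and 108 to 113 FPKM with BMSCs, Muc1 (a mucin) at 0.23 to 0.27 and 1.63 to 2 FPKM, and Krt18 (another keratin) at 0.03 to 0.13 and 0.63 to 0.69 FPKM, while Epcam, Cdh1, Sftpc and Nkx2-1 stayed at 0.06 FPKM or below in every library.

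At most steps of the pathway at least 1 gene was higher in the LLC cells from tumours with BMSCs, from GLUT1 at the cell surface to PDH kinase 1 at the mitochondrion, while Dld and Pdhb of the PDH complex were lower. Of the 38 genes, 37 passed the filter, and 19 of these were higher, 4 were lower and 14 did not pass the test (edgeR quasi-likelihood test, Benjamini-Hochberg adjusted p under 0.05). No gene of aldolase, phosphoglycerate kinase, bisphosphoglycerate mutase or the PDH phosphatase passed. Eno1 and Pkm, the only genes that passed at enolase and pyruvate kinase, lost their call under several alternative settings. Differences were common in this comparison, since 62.9% of all tested genes passed, with 31.5% of all genes higher and 31.3% lower. Among the members the shares were 51.4% higher and 10.8% lower. The median log2 fold change was 0.26 over the members and 0.01 over all tested genes. A log2 fold change of at least 1 together with the adjusted p was found in 5 members, against 8.65% of all genes, and one of -1 or below in 0 members, against 7.17%. The FPKM values of the groups did not overlap in 27 of the 37 members, or 73.0%, a share close to the 70.6% of all genes. Of these 27 genes, 23 were higher and 4 lower, while of the 9432 such genes among all 13353 tested, 4938 were higher and 4494 lower. With 3 libraries on each side the smallest two-sided p of an exact permutation test is 0.1, which is why edgeR's adjusted p is given for single genes. The 38th gene, Pdk2 (a PDH kinase), had 0 counts in each library of LLC alone and 1 count in each library of LLC with BMSCs, and was not tested.

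**Figure D1:**
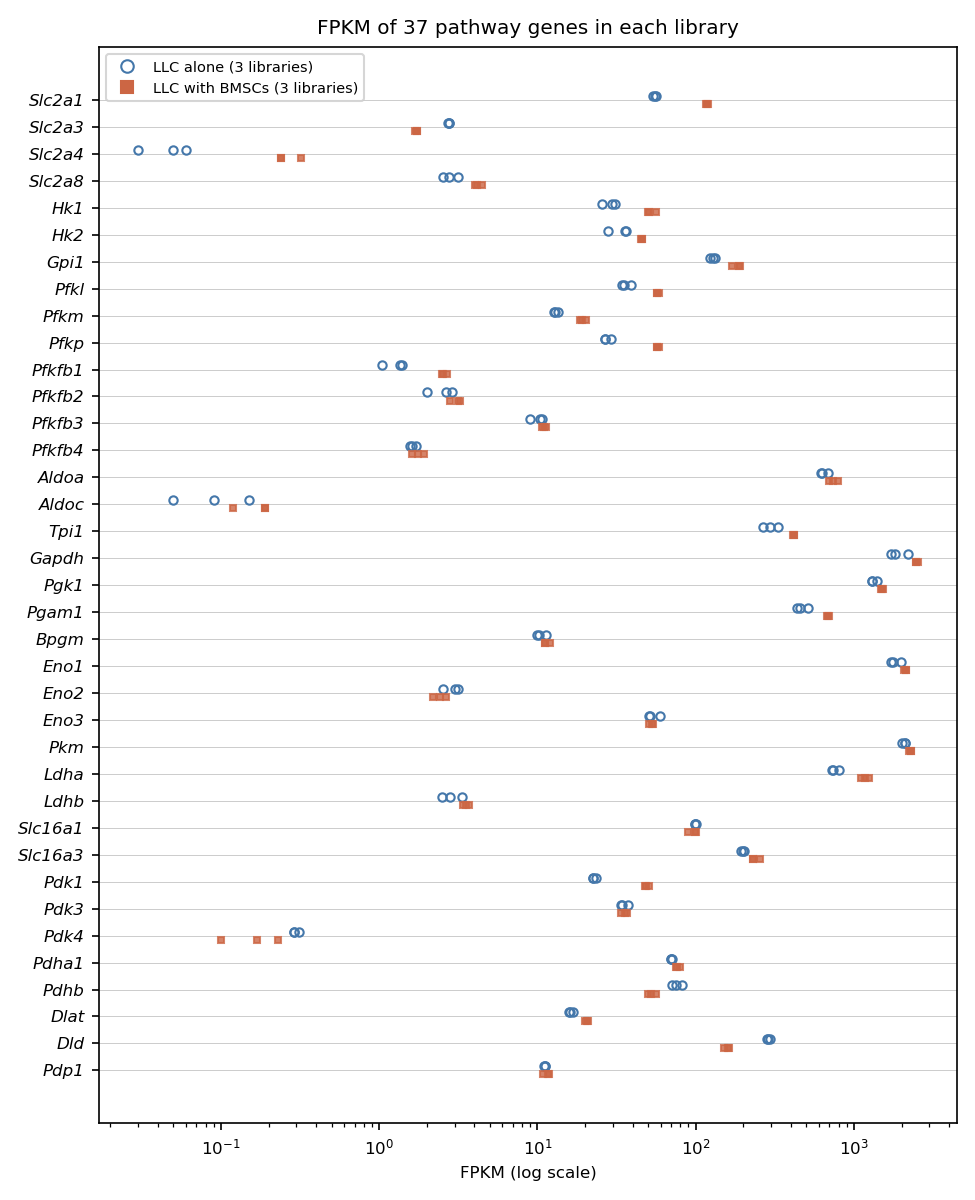
FPKM of the 37 tested genes on a log scale, with 1 point per library (open circles, LLC alone; filled squares, LLC with BMSCs), in the order of the pathway. The levels ran from 0.03 FPKM for Slc2a4 to 2539 FPKM for Gapdh, and the squares of Slc2a1, Pfkp and Pdk1 lay clear to the right of the circles.

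The genes covered a wide range of abundance. In LLC alone, Pkm, Gapdh, Eno1 and Pgk1 ranked 27, 35, 36 and 61 by mean FPKM among the tested genes, and Ldha ranked 112. The 38 genes took between 1.93% and 2.12% of all counts in LLC alone and between 2.40% and 2.46% in LLC with BMSCs, and the 10 most abundant of them held between 92.4% and 93.3% of their summed FPKM in every library. Abundant genes as a whole leaned the other way. Of the 804 tested genes with a mean of at least 100 FPKM, a level chosen after the values were seen, 113 (14.1%) were higher and 413 (51.4%) lower, with a median log2 fold change of -0.24. Of the 11 members at that level, 8 were higher and 1, Dld, was lower. Among the 8, Eno1, Pkm, Gapdh and Slc16a3 lost their call under at least 1 alternative setting of the test.

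**Figure D2:**
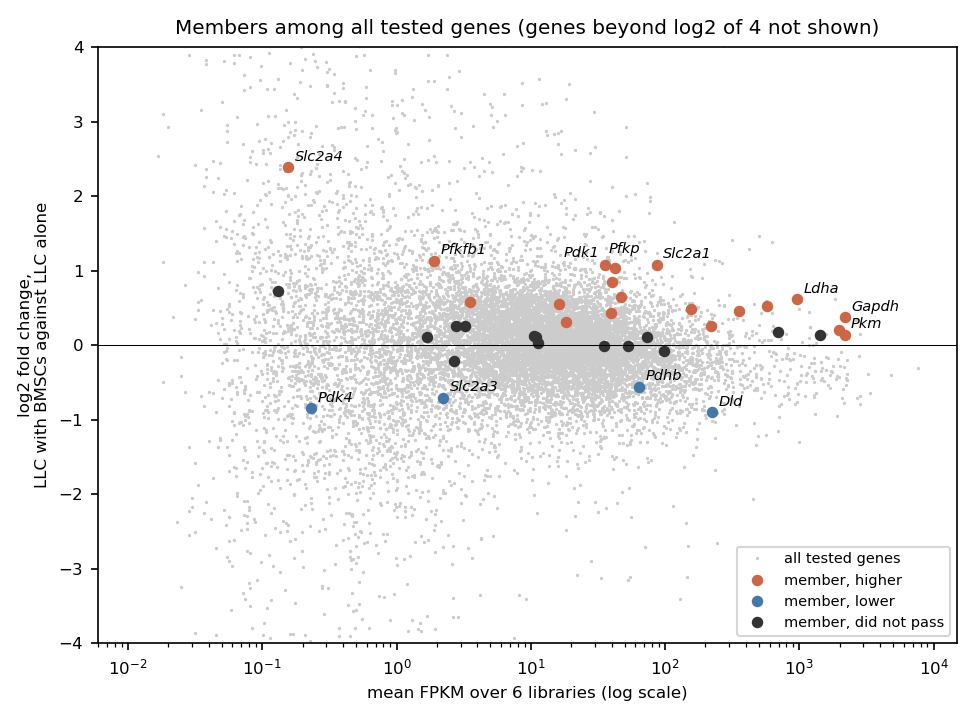
Log2 fold change of LLC with BMSCs against LLC alone plotted over the mean FPKM of the 6 libraries (log scale) for all tested genes (grey) and the members (coloured by call). Ldha, Gapdh and Pkm lie above 0 among the most abundant genes, where most grey points lie below 0, and Dld lies below 0.

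Markers of other cell types differed between the groups too. The 9 neutrophil marker genes in the files summed to 0.29 to 0.63 FPKM in LLC alone and 43.3 to 52.0 FPKM in LLC with BMSCs, led by S100a9, S100a8 and Ngp, while Ly6g stayed at 0.11 FPKM or below. The 15 mesenchymal stromal markers, led by Col3a1, Eng and Ly6a, summed to 80.3 to 91.7 FPKM and to 190 to 197 FPKM. Col3a1 alone was at 36.8 to 43.6 FPKM in LLC alone and at 99.0 to 102 FPKM with BMSCs. All 12 markers that were tested were higher, while Thy1, Postn and Cxcl12 were too rare to test, at 0.10 FPKM or below in every library. The 14 macrophage markers, led by Cd14, Cd68 and Lyz2, summed to 18.1 to 21.2 and 23.6 to 25.4 FPKM, and of the 10 tested 8 were higher and 1 lower. Cd68 fell from 5.14 to 6.12 FPKM to 2.69 to 3.40 FPKM, Lyz2 rose from 2.43 to 3.52 FPKM to 4.57 to 4.98 FPKM, and Cd14, at 8.91 to 10.6 and 9.29 to 11.0 FPKM, did not pass. Adgre1 was at 0 in every library of LLC alone and reached 0.42 to 0.56 FPKM with BMSCs. The 10 erythroid markers, led by Hba-a1, Hbb-bs and Alas2, summed to 2.64 to 3.56 and 8.23 to 9.87 FPKM. Sums were low for the muscle markers (1.57 to 2.54 FPKM over all libraries; Mylpf, Actn3 and Tnnc2 led) and the endothelial markers (0.91 to 1.75; Esam, Pecam1 and Cdh5). The adipocyte markers, led by Lpl, Fabp4 and Pparg, summed to 7.79 to 8.48 FPKM in LLC alone and 6.60 to 7.37 FPKM with BMSCs. The part of these cells in the differences of the pathway genes was not tested, and in bulk RNA a change in the share of cells of a type and a change in RNA per cell cannot be told apart.

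Of the glucose transporters, 3 were higher and 1 was lower with BMSCs. Slc2a1, which encodes GLUT1, the main transporter of most proliferating cells, stood at 53.9, 55.0 and 56.1 FPKM in LLC alone and at 116.9, 119.7 and 117.7 FPKM in LLC with BMSCs. The groups were far apart and narrow, a 2.12-fold difference (log2 fold change 1.08 ± 0.053 SE, edgeR adjusted p = 2.7e-06). Slc2a3 (GLUT3, a high-affinity transporter of neurons and white blood cells) was lower in every library with BMSCs, at 1.74, 1.68 and 1.73 against 2.76, 2.72 and 2.75 FPKM (log2 fold change -0.70 ± 0.071 SE, edgeR adjusted p = 0.00010). Slc2a8 (GLUT8, an intracellular transporter) went from 2.53, 2.76 and 3.17 to 4.45, 4.18 and 4.02 FPKM (log2 fold change 0.58 ± 0.098 SE, edgeR adjusted p = 0.0014). Slc2a4 (GLUT4, the insulin-regulated transporter of muscle and fat) was rare in both groups, with estimated counts of 8, 5 and 4 in LLC alone and 39, 29 and 29 with BMSCs, so that its log2 fold change of 2.39 ± 0.30 SE (edgeR adjusted p = 0.00030) rests on few fragments. Together the 4 transporters summed to 60.6 ± 1.37 FPKM (SD, n = 3) in LLC alone and 124 ± 1.35 (SD, n = 3) with BMSCs, and Slc2a1 made up 90.7% and 95.0% of the sum.

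Both hexokinases, which phosphorylate glucose, were higher with BMSCs. Hk1, the widely expressed form, was at 29.8, 30.8 and 25.4 FPKM in LLC alone and at 56.0, 50.3 and 50.7 FPKM with BMSCs (log2 fold change 0.85 ± 0.086 SE, edgeR adjusted p = 0.00010). Hk2, the form often raised in tumours, was at 35.7, 36.1 and 28.1 FPKM and at 45.7, 45.4 and 45.8 FPKM (log2 fold change 0.44 ± 0.096 SE, edgeR adjusted p = 0.0049). LLC alone replicate 3 was the lowest library for both, and with each library's trend over transcript length removed the log2 fold change of Hk2 was 0.19 and stayed past the threshold. In LLC alone Hk2 was the more abundant in all 3 libraries, and with BMSCs Hk1 was the more abundant in all 3. The share of Hk1 in the pair was 46.4% ± 1.05 (SD, n = 3) in LLC alone and 53.4% ± 1.47 (SD, n = 3) with BMSCs. Gpi1, the isomerase that follows, was at 124, 129 and 132 FPKM and at 189, 188 and 169 FPKM (log2 fold change 0.49 ± 0.067 SE, edgeR adjusted p = 0.00045).

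The 3 subunit genes of phosphofructokinase, the committing step of glycolysis, were all higher with BMSCs. Pfkp, the platelet-type subunit, had the largest difference, from 26.8, 29.2 and 26.6 FPKM to 56.5, 58.5 and 57.3 FPKM (log2 fold change 1.04 ± 0.059 SE, edgeR adjusted p = 5.5e-06). Pfkl, the liver type, was at 34.1, 39.2 and 35.4 FPKM and at 58.2, 57.2 and 57.1 FPKM (log2 fold change 0.65 ± 0.066 SE, edgeR adjusted p = 0.00011). Pfkm, the muscle type, was at 13.0, 13.4 and 12.8 FPKM and at 20.3, 19.2 and 18.6 FPKM (log2 fold change 0.55 ± 0.059 SE, edgeR adjusted p = 0.00014). No library of either group overlapped with the other for any of the 3 genes. Pfkl led in LLC alone with 47.1% of the family's FPKM against 35.8% for Pfkp, and with BMSCs Pfkl and Pfkp held 42.8% each. The exons of Pfkm and Pfkp overlap those of Senp1 and Pitrm1 on the opposite strand, and whether the counting used the strand is not stated.

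The PFKFB enzymes make and break down fructose 2,6-bisphosphate, which activates phosphofructokinase, and 1 of the 4 was called. Pfkfb1, the liver form, rose from 1.04, 1.36 and 1.39 FPKM to 2.48, 2.69 and 2.55 FPKM (log2 fold change 1.14 ± 0.095 SE, edgeR adjusted p = 3.9e-05). Its share of the family went from 8.24% to 14.0%. With limma on log2(FPKM + 1), a scale that compresses low genes, its log2 fold change was 0.66. Pfkfb3, the form with strong kinase activity and the most abundant of the family here, was at 9.04 to 10.8 FPKM in LLC alone and 10.6 to 11.3 FPKM with BMSCs, and its groups overlapped. Pfkfb2 and Pfkfb4 also overlapped, with log2 fold changes of 0.26 ± 0.16 SE and 0.10 ± 0.10 SE. The signs of Pfkfb2, Pfkfb3 and Pfkfb4 turned negative once the length trend was removed, in each case short of the threshold. Exons of Pfkfb1 and Pfkfb2 overlap those of Apex2 and Yod1 on the opposite strand, and the estimated count of Pfkfb1 was not whole in 5 of 6 libraries.

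**Figure D3:**
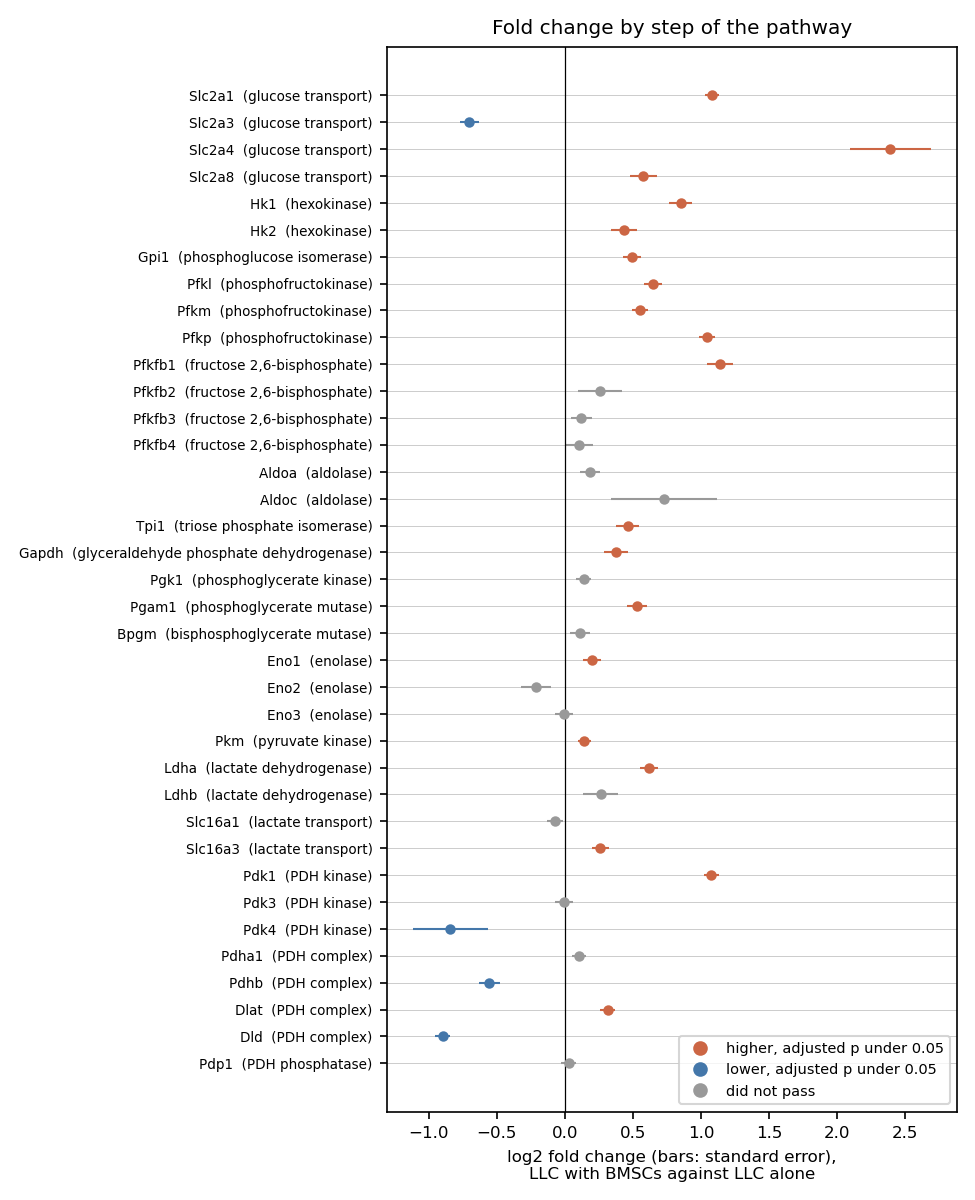
Log2 fold change (LLC with BMSCs against LLC alone) with its standard error for the 37 tested genes in pathway order, coloured by call (higher, lower or not past an adjusted p of 0.05). Genes called higher run from glucose transport to Pdk1, and Dld, Pdhb, Pdk4 and Slc2a3 are the genes called lower.

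In the lower steps, from aldolase to enolase, Tpi1, Gapdh, Pgam1 and Eno1 were higher with BMSCs. Tpi1, which interconverts the triose phosphates, was at 268, 295 and 333 FPKM in LLC alone and at 419, 419.9 and 413 FPKM with BMSCs (log2 fold change 0.46 ± 0.084 SE, edgeR adjusted p = 0.0020). Gapdh, which oxidizes glyceraldehyde phosphate, was at 1725, 1809 and 2192 FPKM and at 2456, 2539 and 2468 FPKM (log2 fold change 0.38 ± 0.087 SE, edgeR adjusted p = 0.0065). Pgam1, a phosphoglycerate mutase, was at 458, 436 and 511 FPKM and at 689, 692 and 678 FPKM (log2 fold change 0.53 ± 0.071 SE, edgeR adjusted p = 0.00044). In each of these 3 genes LLC alone replicate 3 was the library of its group nearest to the libraries with BMSCs. Eno1, the main enolase, was at 1709, 1763 and 1979 FPKM and at 2123, 2124 and 2080 FPKM (log2 fold change 0.20 ± 0.068 SE, edgeR adjusted p = 0.035). The groups of Eno1 did not overlap, but its call was lost under 9 of 16 alternative settings, with adjusted p between 0.075 and 0.11 when any library other than LLC alone replicate 3 was left out. Gapdh lost its call under 1 alternative, in which the closest replicates of each group were summed (adjusted p = 0.066).

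Aldoa, the muscle-type aldolase that supplied 99.97% to 99.99% of aldolase FPKM, and Pgk1, an ATP-making kinase, did not pass the test. Aldoa was at 622, 629 and 688 FPKM in LLC alone and at 798, 736 and 695 FPKM with BMSCs (log2 fold change 0.18 ± 0.075 SE, edgeR adjusted p = 0.064). Pgk1 was at 1297, 1298 and 1400 FPKM and at 1484, 1523 and 1505 FPKM (log2 fold change 0.14 ± 0.055 SE, edgeR adjusted p = 0.057). Neither gene had overlapping groups, and both passed without LLC alone replicate 3 (edgeR adjusted p = 0.0072 for Aldoa and 0.0012 for Pgk1). Aldoc, the brain-type aldolase, was at 0.05 to 0.15 and 0.12 to 0.19 FPKM, and Bpgm, which makes the bisphosphoglycerate of red blood cells, at 9.87 to 11.3 and 11.1 to 12.1 FPKM. The enolases of neurons and muscle, Eno2 and Eno3, had log2 fold changes of -0.21 ± 0.11 SE and -0.01 ± 0.065 SE. Reads of near-identical copies may be divided between genes, and the estimated counts of Gapdh, Pgk1, Pgam1, Eno1, Pkm, Gpi1, Pfkp, Pfkfb2, Slc2a8 and Pdha1 were not whole in any library. Tpi1, Gapdh and Aldoa also share exon positions with Spsb2, Iffo1 and Fam57b on the opposite strand.

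Pkm, which encodes the pyruvate kinase of most tissues, differed both in its total and in the share of its isoforms. The gene was at 2009.85, 2099 and 2095 FPKM in LLC alone and at 2292, 2289.7 and 2232 FPKM with BMSCs (log2 fold change 0.14 ± 0.049 SE, edgeR adjusted p = 0.035), and this call was lost under 10 of 16 alternatives. With any library other than LLC alone replicate 3 left out, the adjusted p was 0.057 to 0.11. The gene makes the isoforms M1 and M2 by splicing in 1 of 2 alternative exons; M1 is known from muscle and brain, and M2 from proliferating and tumour cells. The exons are shown because the isoform counts rest on reads that tell them apart. In GRCm38, on the plus strand, the M1 exon lies at chr9:59675029-59675195 and the M2 exon at chr9:59675568-59675734, each being exon 9 of its transcript (GENCODE annotation). Both are 167 bases long and coding, 103 positions are identical (61.7%), and capitals mark the 64 positions at which they differ.
Pkm M1 exon: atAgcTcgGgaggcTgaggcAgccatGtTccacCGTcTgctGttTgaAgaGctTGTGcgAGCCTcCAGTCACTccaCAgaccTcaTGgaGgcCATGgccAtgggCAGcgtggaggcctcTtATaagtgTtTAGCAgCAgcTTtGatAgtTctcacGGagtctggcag
Pkm M2 exon: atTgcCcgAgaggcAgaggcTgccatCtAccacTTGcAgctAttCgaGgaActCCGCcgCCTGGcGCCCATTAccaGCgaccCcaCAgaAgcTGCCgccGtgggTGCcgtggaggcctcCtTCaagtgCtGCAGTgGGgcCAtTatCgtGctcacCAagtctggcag
The M1 transcript stood at 381, 427 and 401 FPKM in LLC alone and at 275, 319 and 307 FPKM with BMSCs, and the M2 transcript at 1604, 1646 and 1679 FPKM and at 1958, 1909 and 1859 FPKM. M2 was the major isoform in all 6 libraries, M1 was lower and M2 higher with BMSCs, and the groups overlapped for neither. The share of M1 in the sum of both was 19.2%, 20.6% and 19.3% in LLC alone and 12.3%, 14.3% and 14.2% with BMSCs, a difference of -6.10 percentage points (two-sided exact permutation p = 0.1, the lowest possible here). Leaving out any 1 library gave a difference between -6.47 and -5.45 points. The markers of muscle, a tissue that makes M1, summed to 1.57 to 1.94 FPKM in LLC alone and 1.81 to 2.54 FPKM with BMSCs. The authors' pipeline also assembled a longer transcript of the gene, of 5169 bases. It held a mean of 1.02% of the gene's FPKM in LLC alone and 2.71% with BMSCs. This transcript went from 24.2, 24.8 and 14.0 FPKM to 58.7, 60.9 and 64.8 FPKM, a 2.93-fold ratio of the means. The trend over length was not removed from this ratio. LLC alone replicate 3, the lowest library here, was also the lowest in the longest genes.

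Lactate dehydrogenase and 1 of the 2 lactate transporters were higher with BMSCs. Ldha, which turns pyruvate into lactate, was at 726, 736 and 809 FPKM in LLC alone and at 1108, 1245 and 1183 FPKM with BMSCs. This 1.53-fold difference was clear of the spread in both groups (log2 fold change 0.62 ± 0.069 SE, edgeR adjusted p = 0.00017). Ldhb, the heart-type subunit, was at 2.51 to 3.33 and 3.38 to 3.70 FPKM and did not pass (log2 fold change 0.26 ± 0.13 SE, edgeR adjusted p = 0.11). Ldha supplied 99.6% to 99.7% of the FPKM of the pair in every library. Slc16a3 (MCT4), a transporter known for lactate export, was at 198, 193 and 201 FPKM and at 256, 231 and 231 FPKM (log2 fold change 0.26 ± 0.065 SE, edgeR adjusted p = 0.0091), and lost its call when the closest replicates of each group were summed (adjusted p = 0.074). Slc16a1 (MCT1), which carries lactate in either direction, was at 99.3 to 101 FPKM and 89.9 to 100.1 FPKM, with overlapping groups (log2 fold change -0.07 ± 0.060 SE).

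The PDH kinases phosphorylate the PDH complex and so switch it off, and they moved in different directions. Pdk1, the form known as a hypoxia target, was at 22.6, 23.6 and 22.4 FPKM in LLC alone and at 48.2, 50.5 and 47.7 FPKM with BMSCs. Every library with BMSCs held about the same level, 2.11 times that of LLC alone (log2 fold change 1.07 ± 0.056 SE, edgeR adjusted p = 3.7e-06). Pdk3 was at 34.0 to 37.1 and 33.8 to 36.5 FPKM, overlapped between the groups (log2 fold change -0.01 ± 0.065 SE) and changed sign with the scaling. Pdk4, a kinase induced by fasting, was at 0.29 to 0.31 FPKM and 0.10 to 0.23 FPKM, with estimated counts of 49, 33 and 46 in LLC alone and of 26, 35.0 and 15.4 with BMSCs. It was called lower (log2 fold change -0.84 ± 0.27 SE, edgeR adjusted p = 0.028). The call was lost without replicate 1 or 2 of LLC alone and without replicate 1 or 3 of LLC with BMSCs (edgeR adjusted p of 0.054 to 0.075), and without the last of these the log2 fold change was -0.58. The leading kinase therefore differed by group. Pdk3 held 60.2% ± 1.72 (SD, n = 3) of the kinases' FPKM in LLC alone against 39.3% ± 1.70 (SD, n = 3) for Pdk1, and with BMSCs Pdk1 held 57.8% ± 0.82 (SD, n = 3) and Pdk3 42.0% ± 0.87 (SD, n = 3).

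The subunits of the PDH complex, which turns pyruvate into acetyl-CoA, split. Dld, the dihydrolipoamide dehydrogenase that PDH shares with other mitochondrial complexes, was the most abundant subunit gene and the called member with the largest fall, from 283, 288 and 296 FPKM in LLC alone to 150.2, 159 and 162 FPKM with BMSCs. It was 1.86 times higher in LLC alone (log2 fold change -0.90 ± 0.057 SE, edgeR adjusted p = 9.4e-06), and its log2 fold change lay between -0.93 and -0.87 under all 16 alternatives. Pdhb, the beta subunit of the first enzyme, fell from 75.5, 71.2 and 82.1 FPKM to 49.7, 55.8 and 52.5 FPKM (log2 fold change -0.56 ± 0.076 SE, edgeR adjusted p = 0.00046). Its partner Pdha1, the alpha subunit, was at 69.9 to 71.2 FPKM and 75.3 to 79.4 FPKM and did not pass (log2 fold change 0.10 ± 0.052 SE, edgeR adjusted p = 0.12). Its exons overlap those of Map3k15 on the opposite strand. In LLC alone both partners stood near the same FPKM, and with BMSCs the libraries of Pdhb lay below all those of Pdha1. Dlat, the acetyltransferase core, was slightly higher, at 15.9 to 16.9 FPKM and 20.1 to 20.9 FPKM (log2 fold change 0.31 ± 0.055 SE, edgeR adjusted p = 0.0016), and at 0.14 with the length trend removed, still past the threshold. Pdp1, the phosphatase that reactivates the complex, was at 11.0 to 11.1 and 10.9 to 11.8 FPKM and was not called.

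**Figure D4:**
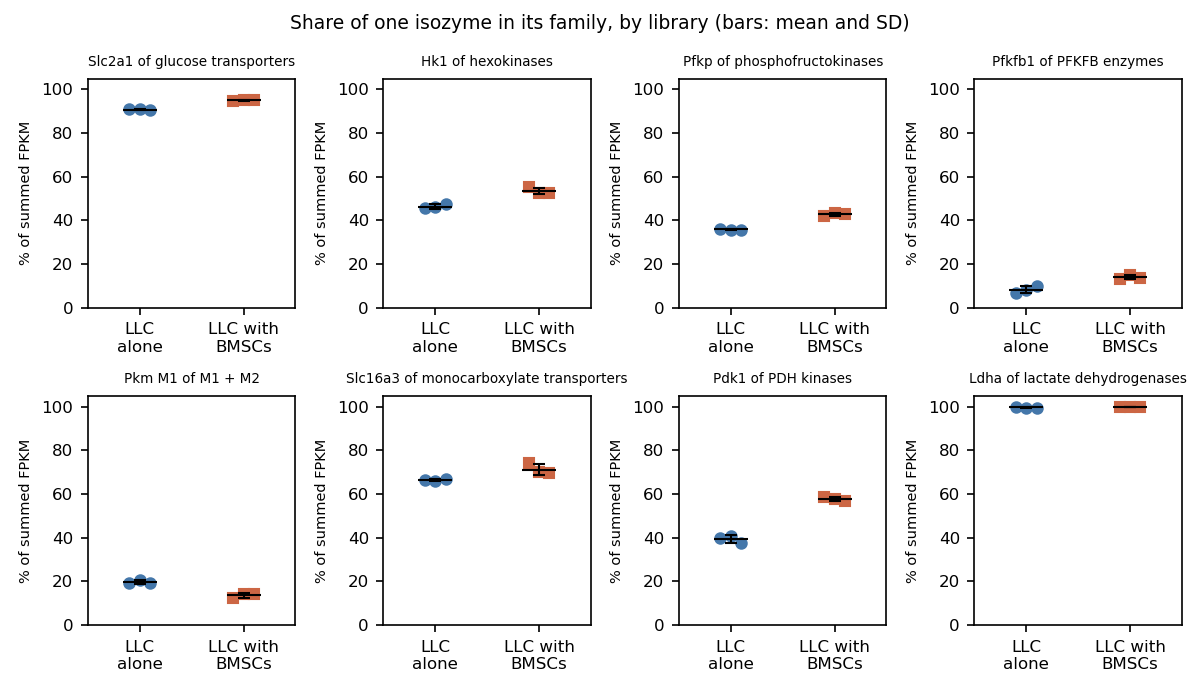
Share of 1 isozyme in the summed FPKM of its family, per library, with the mean and SD of each group (n = 3), for 7 enzyme families and for M1 in the sum of the M1 and M2 transcripts of Pkm. Pdk1 goes from 39.3% to 57.8% of the PDH kinases and M1 from 19.7% to 13.6% of Pkm, while Ldha stays at 99.6% to 99.7%.

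Summed over families, the glucose transporters and phosphofructokinase had the highest ratios and the lactate transporters the lowest. The ratio of the mean summed FPKM, LLC with BMSCs over LLC alone, was 2.05 for the glucose transporters, 1.75 for phosphofructokinase, 1.58 for the hexokinases, 1.56 for lactate dehydrogenase and 1.45 for the PDH kinases. It was 1.19 for the PFKFB enzymes, 1.15 for the aldolases, 1.15 for the enolases and 1.13 for the lactate transporters. The groups did not overlap in any of the 9 sums (two-sided exact permutation p = 0.1 for every sum, the lowest possible). These are ratios of FPKM without edgeR's scaling.

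HIF-1 binds a short core, ACGTG or GCGTG, and the 250 bases before the starts of the members were read for it on both strands (RefSeq starts, GRCm38.p6). Of the 38 genes, 35 had a promoter in the table, and 29 of these (82.9%) held at least 1 core before a start, against 61.3% of the 9790 tested genes with a promoter and 41.5% of all 27025 genes with one. Counted by promoter, since a gene can have several starts, 39 of the 54 promoters of the members (72.2%) and 38.6% of all 32851 promoters held a core. All promoters include those of genes that were not tested, and no share by promoter was taken for tested genes alone. ACGTG alone was found in 15 of 35 members (42.9%), against 25.0% of tested genes, and in 35.2% of the promoters of the members against 16.6% of all promoters. GCGTG was found in 23 of 35 (65.7%), against 50.02% of tested genes, and in 51.9% of the promoters of the members against 28.2% of all promoters. Among the 18 members called higher that had a promoter, 15 held a core, and among the other 17 members 14 did. Both cores hold CG, and the base composition of the promoters was not matched. A match is a description of letters, not of a bound site. A pair of matches that overlap, as in CACGTG, was counted as 1. The promoters of Slc2a1, Pfkp, Ldha and Pdk1, which were higher at the uptake, commitment, lactate and PDH kinase steps, and of Dld, which fell, are shown as examples picked after their values were seen, with the matches in capitals, each before its most upstream start and read in the direction of the gene.
Slc2a1, chr4:119108495-119108744, plus strand: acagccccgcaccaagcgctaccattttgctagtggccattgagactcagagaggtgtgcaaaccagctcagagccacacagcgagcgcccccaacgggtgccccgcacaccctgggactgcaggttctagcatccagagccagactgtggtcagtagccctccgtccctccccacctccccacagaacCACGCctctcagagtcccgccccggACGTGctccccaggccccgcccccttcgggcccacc
Pfkp, chr13:6648772-6649021, minus strand: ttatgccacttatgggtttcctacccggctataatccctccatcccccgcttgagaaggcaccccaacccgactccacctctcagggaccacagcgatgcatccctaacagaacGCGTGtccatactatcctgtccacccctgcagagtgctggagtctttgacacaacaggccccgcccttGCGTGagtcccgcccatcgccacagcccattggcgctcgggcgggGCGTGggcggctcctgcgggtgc
Ldha, chr7:46845554-46845803, plus strand: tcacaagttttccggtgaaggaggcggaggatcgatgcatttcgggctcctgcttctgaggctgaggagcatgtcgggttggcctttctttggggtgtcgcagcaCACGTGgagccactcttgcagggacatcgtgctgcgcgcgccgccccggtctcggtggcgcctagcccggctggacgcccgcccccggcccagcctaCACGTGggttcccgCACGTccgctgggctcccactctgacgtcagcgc
Pdk1, chr2:71872974-71873223, plus strand: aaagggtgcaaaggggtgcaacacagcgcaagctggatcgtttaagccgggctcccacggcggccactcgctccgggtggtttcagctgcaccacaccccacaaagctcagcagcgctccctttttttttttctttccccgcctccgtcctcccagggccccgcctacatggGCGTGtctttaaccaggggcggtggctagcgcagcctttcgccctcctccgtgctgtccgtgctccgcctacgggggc
Dld, chr12:31351472-31351721, minus strand: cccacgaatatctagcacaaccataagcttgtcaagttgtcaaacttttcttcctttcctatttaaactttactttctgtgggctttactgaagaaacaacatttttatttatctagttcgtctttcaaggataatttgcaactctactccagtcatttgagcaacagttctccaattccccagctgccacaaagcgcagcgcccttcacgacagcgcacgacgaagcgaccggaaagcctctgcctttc
The Slc2a1 window held 2 matches, 1 of each core. Pfkp held 3, all of GCGTG, and Ldha held 3, all of ACGTG, 2 of them within CACGTG. Pdk1 held 1 match of GCGTG, and these letters were not in the Dld window, unlike in most members that were not called higher.

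Pathways next to glycolysis differed in their direction. Of 27 tested HIF target genes outside the pathway, 19 (70.4%) were higher and 4 (14.8%) lower, and the median log2 fold change was 0.92. Over all tested genes the shares were 31.5% higher and 31.3% lower. Bnip3, a mitophagy receptor, went from 32.4 to 36.4 FPKM in LLC alone to 109 to 124 FPKM with BMSCs, and Egln3, an oxygen-sensing prolyl hydroxylase, from 54.0 to 57.3 FPKM to 176 to 184 FPKM. Lox, which cross-links collagen, was at 0.01 to 0.03 FPKM in LLC alone and at 3.20 to 3.43 FPKM with BMSCs. Vegfa, Ddit4, Bhlhe41 and Mif were the 4 called lower, and Car9, Car12, Ndrg1 and Tfrc did not pass; both groups of names are given after their values were seen. The count of lower targets was 2 when LLC alone replicate 1 or any single library with BMSCs was left out. Of 20 genes of gluconeogenesis and glycogen metabolism, 9 (45%) were higher and 4 (20%) lower. The glycogen branching enzyme Gbe1 rose from 7.77 to 8.54 FPKM to 19.3 to 20.6 FPKM (log2 fold change 1.28), Pgm2 from 26.1 to 28.8 FPKM to 62.8 to 66.9 FPKM (1.23), and the glucose phosphate transporter gene Slc37a4 had a log2 fold change of 0.94.

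In the pentose phosphate pathway and the TCA cycle more genes were lower than higher. Of 12 tested genes of the pentose phosphate pathway, 7 (58.3%) were lower and 2 (16.7%) higher. Shpk, a sedoheptulose kinase, fell from 2.93 to 3.44 FPKM in LLC alone to 0.54 to 0.62 FPKM with BMSCs, and Rpe, an epimerase, from 25.2 to 25.5 FPKM to 15.7 to 16.2 FPKM, while Pgd, which makes NADPH, rose from 76.8 to 81.1 FPKM to 116 to 119.6 FPKM. Of 21 genes listed for the TCA cycle, 10 (47.6%) were lower and 3 (14.3%) higher, and the median log2 fold change was -0.14. Pcx, a pyruvate carboxylase, is in this list and in that of pyruvate entry below, and counts among the higher genes of both. The largest falls were in Sdhc (-0.54 ± 0.086 SE) and Sdhd (-0.45 ± 0.079 SE), membrane subunits of succinate dehydrogenase, and in the malate dehydrogenase Mdh2 (-0.43 ± 0.066 SE). The count of lower TCA cycle genes dropped to 6 when either replicate 2 or replicate 3 of LLC with BMSCs was left out, and that of higher genes was 5 without LLC alone replicate 3. Of 10 other genes listed around pyruvate entry, 3 (30%) were higher and 4 (40%) lower, not far from all tested genes (31.5% and 31.3%). The 4 lower were Mpc2, Me1, Dbt and Slc25a1, and not all of these bring pyruvate into the mitochondrion. The higher count was 1 without LLC with BMSCs replicate 1. The mitochondrial pyruvate carrier subunit Mpc2 fell from 35.4 to 47.6 FPKM to 20.1 to 24.4 FPKM (log2 fold change -0.82 ± 0.13 SE), the cytosolic malic enzyme Me1 from 86.8 to 89.1 FPKM to 39.5 to 41.3 FPKM (-1.14 ± 0.052 SE), and the mitochondrial Me2 rose from 25.1 to 25.6 FPKM to 44.8 to 45.9 FPKM (0.82 ± 0.052 SE). These lists are described by counts and medians only, and no set test was run.

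**Figure D5:**
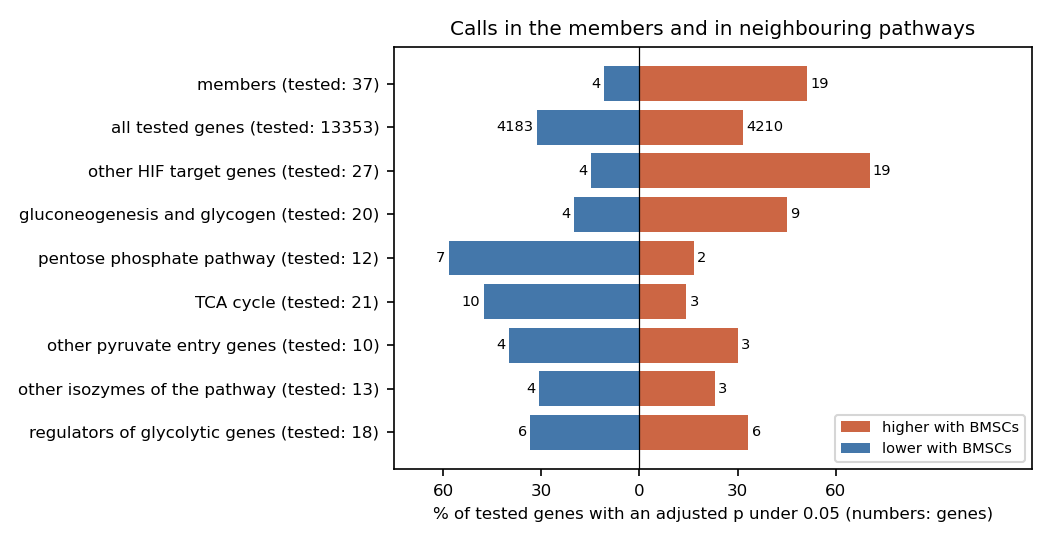
Percent of the tested genes of each list that were higher (right) or lower (left) with BMSCs at an adjusted p under 0.05, with the number of genes beside each bar. The members (19 higher, 4 lower) and the other HIF targets (19 and 4) lean to the right, the TCA cycle (3 and 10) and the pentose phosphate pathway (2 and 7) to the left, and all tested genes are even.

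Many other isozymes of the pathway were too rare to test. Of 26 listed genes, 13 were tested, 3 of them (23.1%) higher and 4 (30.8%) lower, against 31.5% and 31.3% of all tested genes. The list also holds genes that are not isozymes, and Pgam5 and Tigar of these were among the 4 lower. The lower count was 1 or 2 when LLC alone replicate 1 or any single library with BMSCs was left out. Slc2a6, a transporter of lysosomes in macrophages, was at 0.37 to 0.52 FPKM in LLC alone and 1.08 to 1.32 FPKM with BMSCs. Pgam5, a mitochondrial phosphatase related to the mutases, fell from 56.4 to 62.3 FPKM to 40.9 to 46.1 FPKM. Eno1b was at 0.19 to 0.24 FPKM and 5.12 to 6.05 FPKM, but its sequence is nearly that of Eno1, so that the division of reads between them is uncertain. Hk3, a hexokinase of white blood cells, named after its values were seen, had a mean of 0.0067 FPKM in LLC alone and 0.24 FPKM with BMSCs, beside the neutrophil markers given above. Of 18 tested regulators of glycolytic genes, 6 were higher and 6 lower, 33.3% each and so near the shares of all tested genes. The higher count was 3 without replicate 1 or replicate 2 of LLC with BMSCs. Txnip, which restrains glucose uptake, fell from 237 to 241 FPKM to 45.3 to 47.4 FPKM (log2 fold change -2.39 ± 0.054 SE), and Myc from 677 to 687 FPKM to 284 to 321 FPKM (-1.22 ± 0.067 SE). Hif1a, named after its values were seen, fell from 201 to 229 FPKM to 168 to 175 FPKM (log2 fold change -0.36 ± 0.064 SE, edgeR adjusted p = 0.0017). All of these named falls and rises passed edgeR's test at an adjusted p under 0.05.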

How the data were processed

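RNA of RFP-positive LLC cells was sequenced in 6 libraries, grouped and numbered by their labels. For each gene and transcript the authors deposited an estimated count, a length in bases and an FPKM value. The estimated count need not be whole (21.9% to 23.2% of listed genes were not). No FPKM value of the table of the whole series differed by over 0.0051 from the single tables. The labels list HISAT, StringTie, Cufflinks, GATK and the build mm8 with no role, and no program or annotation is tied to a value. Estimated counts were rounded and fitted with edgeR 4.0.16 in R 4.3.3 (TMM, default filter, quasi-likelihood test, group as the only term), with p adjusted over 13353 genes. Standard errors were taken from the fold change and its test statistic. A floor of 3 counts is at most 0.0896 CPM and covers counting error only. The biological coefficient of variation was 9.92%. Shares were taken per library and compared by an exact permutation test over 10 splits. Alternatives used DESeq2 1.42.0, limma 3.58.1 on log2(FPKM + 1) and log2(FPKM + 0.1), other scalings and filters, a loess trend over length, a replicate block, summed close pairs and single libraries left out. The scripts were tested on simulated data. Members and lists were chosen with earlier results of these data known. Named were all 38 members; in each pathway list up to 3 called genes with the largest change and a mean of at least 1 FPKM in a group; and in each marker list the 3 most abundant genes. Some of the genes that this rule names are not reported here. Positions are from GENCODE on GRCm38 and promoters from RefSeq, matched by symbol.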

Additional observations from a re-analysis of the deposited data

How the results depend on the processing

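Under 16 alternatives, 18 of the 23 called members kept their direction and call in each alternative that tested them (for Slc2a4 this was 13, since stricter filters left it out); Eno1, Pkm, Gapdh, Slc16a3 and Pdk4 lost it under at least 1. The members called higher numbered 15 to 24 and those called lower 3 to 7 across the alternatives with the same threshold, and 17 to 24 and 3 to 4 when single libraries were left out. With a log2 fold change of at least 1 required as well, 5 members were higher and 0 lower, against 1155 and 957 of all genes; for the other lists the higher and lower counts were then 0 lower for isozymes, 0 and 1 for pyruvate entry, 0 and 1 for the pentose phosphate pathway, 3 and 0 for gluconeogenesis and glycogen, 0 and 0 for the TCA cycle, 10 and 0 for HIF targets, and 1 and 2 for regulators. With the length trend removed, 7 members were lower (Eno2, Slc16a1 and Pdp1 in addition), 1 gene of pyruvate entry and 5 of the TCA cycle were higher, and of all genes 29.9% were higher and 40.1% lower. With close pairs summed, the lower counts were 1 for isozymes, 2 for pyruvate entry, 6 for the TCA cycle and 2 for HIF targets, and the higher counts 1 for pyruvate entry, 0 for the TCA cycle and 3 for regulators. With at least 10 counts in every library, 1 isozyme was higher. Leaving out 1 library gave 1 to 4 for other isozymes of the pathway lower, 1 to 3 for other pyruvate entry genes higher, 3 to 5 for TCA cycle higher, 6 to 10 for TCA cycle lower, 2 to 4 for other HIF target genes lower and 3 to 7 for regulators of glycolytic genes higher. The signs of some genes that were not called turned. With the length trend removed, the log2 fold change was -0.068 for Pfkfb2, -0.097 for Pfkfb3, -0.028 for Pfkfb4, -0.16 for Pdp1 (adjusted p = 0.033 in edgeR), 0.024 for Eno3 and 0.012 for Pdk3. With library size only, Eno3 was at 0.010 and Pdk3 at 0.015; with upper-quartile scaling, Pdp1 was at -0.0023; and with limma, Pdk3 was at 0.0155 with a pseudocount of 1 and 0.0159 with 0.1. With single libraries left out, Eno3 ran from -0.0405 to 0.043 and Pdk3 from -0.031 to 0.045. As shares of estimated counts in place of FPKM, which weights genes by length, the differences were 5.69 points for Slc2a1, 3.54 for Pfkfb1, -0.015 for Aldoa, 0.44 for Eno1 and 15.3 for Pdk1. The same replicate numbers did not pair the samples, with correlations of deviations of 0.08, -0.11 and 0.06, and 2 of 6 libraries correlated best with their own number. With a replicate block, 18 members were higher and 4 lower, and 4161 and 4058 of all genes. The cause of these shifts was not tested. Depth limits Slc2a4, Aldoc, Pdk4 and Pdk2, which had few counts.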
